A study of Mus musculus with 12 samples.

Results

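The G1 control genes Ccnd1, Ccnd2, Ccnd3, Cdk4, Cdk6, Cdkn2a, Cdkn2b, Cdkn2c and Rb1 were followed in 12 mouse rhabdoid tumors. They are 9 of the 24060 genes listed for each tumor, and they were taken by name. All tumors arose in P0-CreC;Smarcb1 flox/flox mice on an FVB/N background, in which Cre under the P0 promoter deletes Smarcb1 in early neural crest cells and the Schwann cell lineage. Smarcb1 encodes a core subunit of the SWI/SNF chromatin remodelling complex. By the location label, 4 tumors were retro-orbital, 3 came from the cheek, 3 from the meninges, 1 from the vestibular nerve and 1 from the trigeminal nerve. Genotype was the same in all 12 tumors, no other treatment is named, and no Smarcb1-proficient tissue is among them, so every comparison was between tumors. The age at which each tumor was taken is not given in the sources used here. Tumors are named by location and a number in deposit order.

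D-type cyclins bind CDK4 or CDK6 in the G1 phase of the cell cycle, and the active kinases phosphorylate the retinoblastoma protein RB1. Phosphorylated RB1 releases E2F factors, which switch on genes for DNA replication. The INK4 proteins, encoded by Cdkn2a, Cdkn2b, Cdkn2c and Cdkn2d, bind CDK4 and CDK6 and block this step. Cdkn2d was not among the genes followed. Cdkn2a also encodes p19ARF, an activator of p53, from a second promoter and an alternative reading frame. In human rhabdoid cell lines, returning SMARCB1 is known to raise p16INK4a, lower cyclin D1 and arrest cells in G1. By western blot, the paper reported higher p16, cyclin D1, CDK4 and CDK6 protein in mouse tumors of this genotype than in control tissues. It found phosphorylated RB in some of those tumors. Only RNA was measured here.

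RNA depleted of ribosomal RNA was measured as RPKM, read fragments per kilobase of transcript, scaled to the tumor's total. The totals behind the values ranged from 13206168 to 57128422 fragments per tumor, and between 79 (Cdkn2a) and 31284 (Ccnd2) fragments lay behind each value of the 9 genes. Smarcb1 itself lay between 1.70 RPKM in the vestibular tumor and 6.31 RPKM in meninges tumor 3; its value spans the whole transcript and the normal cells of a tumor keep the gene, so it does not measure the deletion. The rhabdoid marker Vim ranged from 114 to 3001 RPKM. Markers of other cells were present in unequal amounts (the oligodendrocyte gene Mobp was the only one of the muscle, glial and leukocyte markers at 0 in any tumor): the summed RPKM of 8 skeletal muscle genes ranged from 6.74 to 606, that of 6 astrocyte and oligodendrocyte genes from 2.99 to 394, and that of 6 leukocyte genes from 90.6 to 469. The muscle genes did not rise and fall together. Myh1 was highest in meninges tumor 3 (154 RPKM), where Acta1 was at 0.61 RPKM, and Acta1 was highest in cheek tumor 2 (196 RPKM). In bulk tissue, fewer cells of a type and less RNA per cell cannot be told apart. The titles of 3 pairs of tumors begin with the same number (cheek 1 and meninges 1, cheek 2 and cheek 3, retro-orbital 3 and the trigeminal tumor); whether each pair came from 1 mouse is not stated.

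All 9 genes were above 2.6 RPKM in every tumor. By their mean RPKM, which is scaled to transcript length, the order was Cdk4 (110 ± 26.1, SD, n = 12), Ccnd1 (87.9 ± 38.1), Ccnd2 (79.3 ± 55.9), Ccnd3 (37.4 ± 31.3), Cdkn2c (18.0 ± 8.28), Cdkn2a (11.4 ± 8.72), Cdk6 (10.7 ± 4.32), Rb1 (9.36 ± 3.37) and Cdkn2b (8.55 ± 3.68). Ccnd2 exceeded Ccnd3 in 11 of 12 tumors, with a mean difference of 1.12 ± 0.998 (SD) on the log2 scale, the one step in this order that was larger than its SD. Cdk4 exceeded Ccnd1 in 11 of 12 tumors by 0.38 ± 0.63, Ccnd1 exceeded Ccnd2 in 8 of 12 by 0.40 ± 1.17, and Ccnd3 exceeded Cdkn2c in 10 of 12 by 0.83 ± 0.92. Cdkn2a, Cdk6, Rb1 and Cdkn2b could not be ordered, and by the median Cdk6 and Rb1 stood above Cdkn2a. Even at its lowest, in retro-orbital tumor 2, Cdk4 lay above 96.6% of all genes listed. The lowest Cdkn2a value, in meninges tumor 2, lay above 52.3% of them. The plot of RPKM by location shows the spread.

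**Figure D1:**
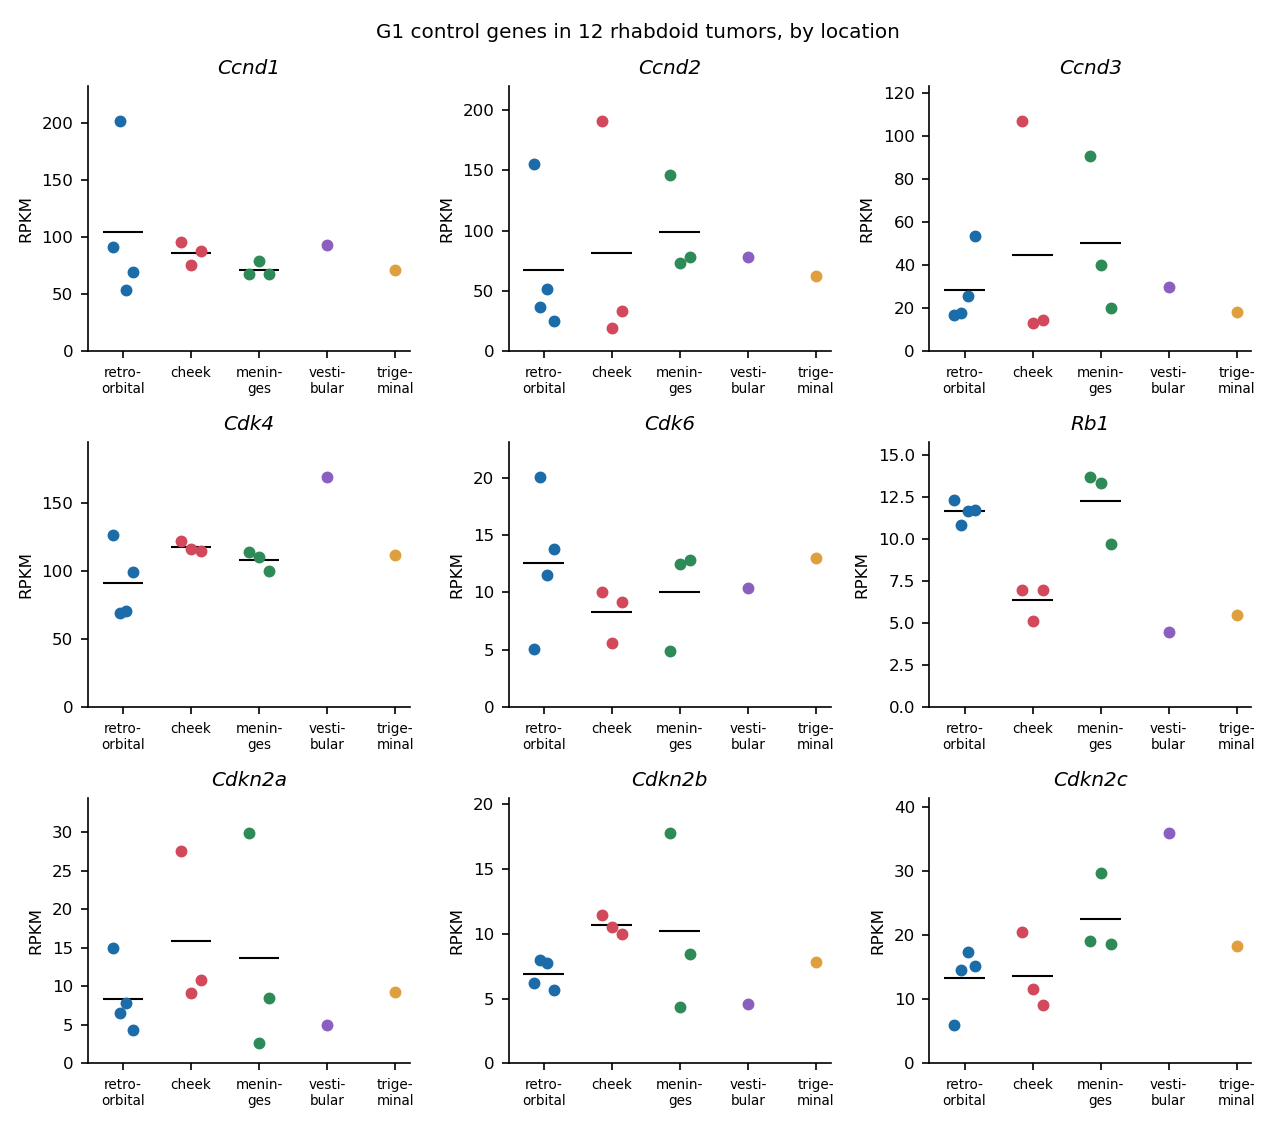
RPKM of the 9 genes (vertical axis, from 0) by tumor location (horizontal axis); each point is 1 tumor and each line the mean of the 4 retro-orbital, 3 cheek or 3 meninges tumors. Cheek tumor 1 and meninges tumor 1 stand high for Ccnd2, Ccnd3 and Cdkn2a, and for Rb1 the 3 cheek tumors (5.12 to 6.98 RPKM) lie below all retro-orbital and meninges tumors (9.69 to 13.7 RPKM).

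The 3 D cyclins were all expressed, and which one led differed from tumor to tumor. Ccnd1 (GRCm38 chromosome 7, 144929931 to 144939925, minus strand) encodes cyclin D1. It was at 91.3, 202, 53.9 and 69.9 RPKM in retro-orbital tumors 1 to 4, at 95.6, 75.3 and 88.0 in the cheek tumors, at 67.4, 78.8 and 67.6 in the meninges tumors, at 93.3 in the vestibular tumor and at 71.4 in the trigeminal tumor. Retro-orbital tumor 2 stood above all others, and the other 11 lay within 53.9 to 95.6 RPKM.

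Ccnd2 (chromosome 6, 127125162 to 127152193, minus strand), encoding cyclin D2, varied most of the 3. It was at 155, 36.8, 51.4 and 25.3 RPKM in the retro-orbital tumors, at 191, 19.6 and 33.1 in the cheek tumors, at 146, 72.9 and 78.1 in the meninges tumors, at 78.5 in the vestibular and at 62.5 in the trigeminal tumor. Its highest value was 9.74 times its lowest, and both came from the cheek. Ccnd3 (chromosome 17, 47505051 to 47599691, plus strand), encoding cyclin D3, was at 17.1, 17.9, 25.9 and 53.8 RPKM in the retro-orbital tumors, at 107, 13.0 and 14.5 in the cheek tumors, at 90.9, 40.3 and 20.3 in the meninges tumors, at 29.9 in the vestibular and at 18.3 in the trigeminal tumor. Cheek 1 and meninges 1, both also high for Ccnd2, were highest for Ccnd3, while retro-orbital tumor 1, high for Ccnd2, had one of the lower Ccnd3 values.

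Ccnd1 made up the greatest part of the summed D cyclin RPKM in 8 tumors and Ccnd2 in 4 (retro-orbital 1, cheek 1, meninges 1 and meninges 3); Ccnd3 led in none of the 12. The share of Ccnd1 ranged from 22.1% in meninges tumor 1 to 78.7% in retro-orbital tumor 2 (mean 46.4% ± 17.2, SD), that of Ccnd2 from 14.3% to 58.9% and that of Ccnd3 from 6.48% to 36.1%. Counted in fragments, without scaling to length, Ccnd2 had the higher mean share, 48.2% against 42.3% for Ccnd1. Summed over the 3 genes, D cyclin RPKM ranged from 108 to 394. The plot of family shares gives each tumor.

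**Figure D2:**
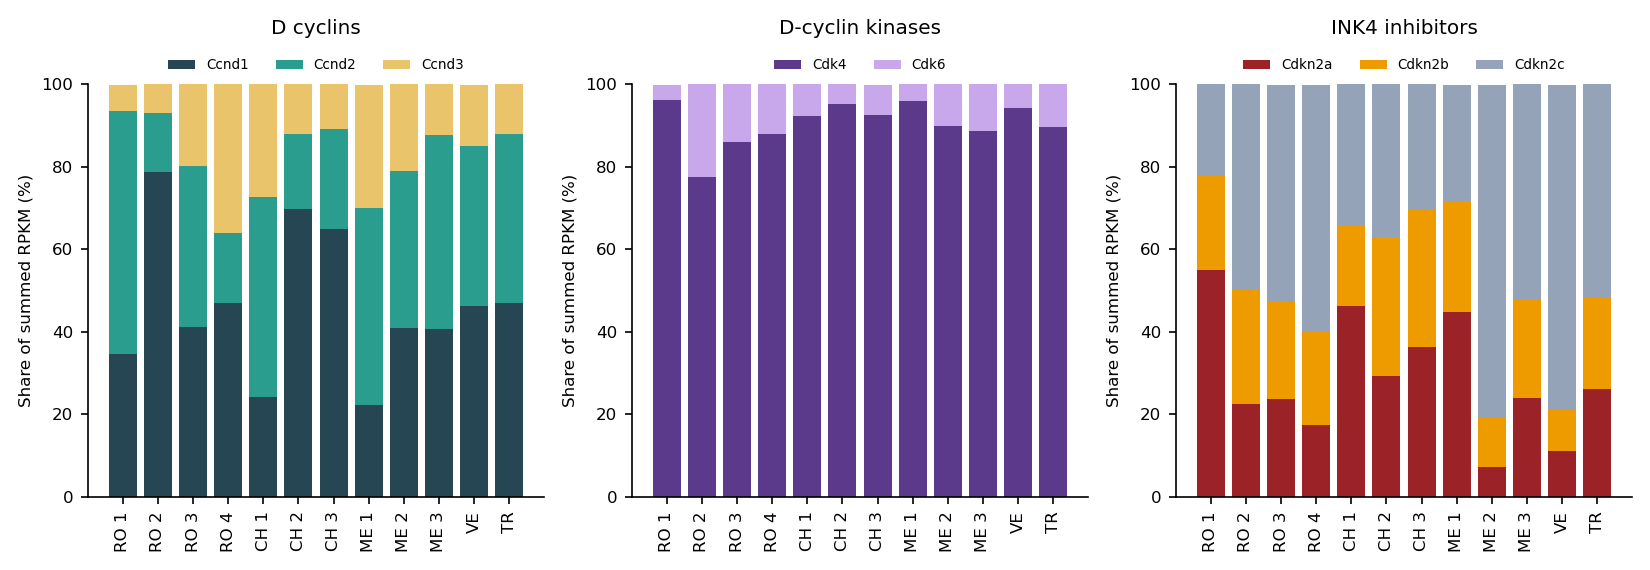
Share of each gene in the summed RPKM of its family (vertical axis, percent) in each tumor (RO retro-orbital, CH cheek, ME meninges, VE vestibular, TR trigeminal). Ccnd1 led the D cyclins in 8 of 12 tumors, Cdk4 made up 77.5% to 96.2% of the kinase pair, and Cdkn2c led the INK4 genes in 8 of 12.

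Of the kinases that D cyclins activate, Cdk4 was far more abundant than Cdk6. Cdk4 was at 127, 69.1, 70.5 and 99.7 RPKM in the retro-orbital tumors, at 123, 116 and 115 in the cheek tumors, at 114, 110 and 100.002 in the meninges tumors, at 170 in the vestibular and at 112 in the trigeminal tumor. Cdk4 (chromosome 10, 127063534 to 127067920, plus strand) varied least of the 9 genes, by 2.45 times from lowest to highest. Retro-orbital tumors 2 and 3 were the low ones and the vestibular tumor the high one, and the other 9 lay between 99.7 and 127 RPKM.

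Cdk6 (chromosome 5, 3341485 to 3531008, plus strand) was at 5.05, 20.1, 11.5 and 13.8 RPKM in the retro-orbital tumors, at 10.1, 5.63 and 9.20 in the cheek tumors, at 4.90, 12.5 and 12.8 in the meninges tumors, at 10.4 in the vestibular and at 13.0 in the trigeminal tumor. It was highest in retro-orbital tumor 2, where Cdk4 was lowest. Cdk4 exceeded Cdk6 by 3.44 to 25.1 times (median 10.49 times), and it made up 90.5% ± 5.29 (SD) of the pair. By fragments its mean share was 84.2%. The ratio rests on the lengths used by the authors: the Cdk6 values are whole fragments at a length of 2470 bases, whereas the annotated RefSeq transcript has 11525. Exons of Cdk4 overlap those of Tspan31 on the opposite strand, and those of Ccnd3 overlap Bysl in the same way; whether the counting used the strand is not given in the sources used here.

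By mean RPKM the INK4 genes were lower than the cyclins and Cdk4, and they were present in every tumor. Within tumors, Cdkn2c exceeded Ccnd3 in the vestibular tumor (36.0 against 29.9 RPKM) and narrowly in the trigeminal tumor (18.36 against 18.35 RPKM). Cdkn2a (chromosome 4, 89274471 to 89294653, minus strand) was at 14.95, 6.53, 7.78 and 4.36 RPKM in the retro-orbital tumors, at 27.5, 9.15 and 10.9 in the cheek tumors, at 29.9, 2.64 and 8.46 in the meninges tumors, at 4.99 in the vestibular and at 9.27 in the trigeminal tumor. This was the widest span of the 9 genes, 11.3 times, and the highest and the lowest tumor were both from the meninges. The single value of the gene joins the transcripts of p16INK4a and p19ARF, which have separate starts and share exons, so neither was measured alone.

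Cdkn2b, encoding p15INK4b, lies 11645 bases from Cdkn2a on the same strand (89306299 to 89311039). It was at 6.20, 8.01, 7.77 and 5.69 RPKM in the retro-orbital tumors, at 11.4, 10.52 and 10.002 in the cheek tumors, at 17.8, 4.37 and 8.47 in the meninges tumors, at 4.55 in the vestibular and at 7.83 in the trigeminal tumor. As for Cdkn2a, meninges tumor 1 was highest, cheek tumor 1 next and meninges tumor 2 lowest. Mtap, the methylthioadenosine phosphorylase gene near the locus, was between 14.1 and 52.1 RPKM, so all 12 tumors had RNA of all 3 genes of this stretch.

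Cdkn2c, encoding p18INK4c, lies elsewhere on chromosome 4 (109660876 to 109667189, minus strand). It was at 6.04, 14.5, 17.4 and 15.1 RPKM in the retro-orbital tumors, at 20.4, 11.5 and 9.11 in the cheek tumors, at 19.1, 29.7 and 18.5 in the meninges tumors, at 36.0 in the vestibular and at 18.4 in the trigeminal tumor. The vestibular tumor and meninges tumor 2, the highest for Cdkn2c, were among the lowest for Cdkn2a and Cdkn2b. Of the summed RPKM of Cdkn2a, Cdkn2b and Cdkn2c, without Cdkn2d, Cdkn2c accordingly made up between 22.2% and 80.9%. It led these genes in 8 tumors, and Cdkn2a led in the other 4 (retro-orbital 1, cheek 1, cheek 3 and meninges 1). The sum of these genes, again without Cdkn2d, ranged from 25.2 to 66.8 RPKM.

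Among the inhibitors outside the 9 genes, Cdkn1a, encoding the p53 target p21, was highest in the same pair of tumors, at 90.8 RPKM in cheek tumor 1 and 70.8 in meninges tumor 1 against 17.8 to 47.5 in the others. Cdkn1c, encoding p57, was at 32.5 and 36.1 RPKM in that pair and as low as 1.45 RPKM in retro-orbital tumor 2. Cdkn1b, encoding p27, ranged from 38.1 RPKM in cheek tumor 1 to 68.7 in the vestibular tumor, and Cdkn2d, the remaining INK4 gene, from 4.51 to 16.3 RPKM.

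Rb1 (chromosome 14, 73183673 to 73325822, minus strand), the target of the kinases, was the gene closest to a difference by location. It was at 12.3, 10.8, 11.7 and 11.7 RPKM in the retro-orbital tumors, at 6.98, 5.12 and 6.97 in the cheek tumors, at 13.7, 13.3 and 9.69 in the meninges tumors, at 4.45 in the vestibular and at 5.48 in the trigeminal tumor. The cheek tumors did not overlap the retro-orbital or the meninges tumors, and the vestibular and trigeminal tumors were as low as the cheek. In 3.4% of all 14745 genes tested, the cheek tumors likewise lay below every retro-orbital and meninges tumor. Exons of Rb1 overlap those of Lpar6 and Rcbtb2 on the opposite strand.

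Location was compared over the 10 retro-orbital, cheek and meninges tumors with limma on log2(RPKM + 1), fitted to 14745 genes with at least 1 RPKM in 3 or more of these tumors and adjusted over all of them by the Benjamini-Hochberg method. Single tumors of the vestibular and trigeminal nerves could not be compared. None of the 9 genes passed an adjusted p of 0.05 for any difference between locations, nor did any pass for a pair of locations. Of all genes, 0.0407% passed the test over the 3 locations (6 genes), 0.0271% that of retro-orbital against cheek, 0.0203% that of retro-orbital against meninges and 0.0475% that of cheek against meninges. At an unadjusted p under 0.05 the test over locations called 1 of the 9, Rb1, and 14.3% of all genes; voom on recovered fragments called 1 gene in all and none of the 9. The median gene was lower in retro-orbital than in meninges tumors by 0.13 and in cheek than in meninges tumors by 0.16 (log2), and the values below are not corrected for this.

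For Rb1, cheek tumors were lower than retro-orbital tumors by 0.79 ± 0.19 (SE) on the log2(RPKM + 1) scale and lower than meninges tumors by 0.84 ± 0.20, with an adjusted p of 0.181 over the 3 locations. An exact permutation test of Rb1 alone over 4200 labellings gave an unadjusted p of 0.0114. It treated all tumors as independent, although some cheek tumors share the first part of the title with each other or with a meninges tumor. If cheek 2 and cheek 3 came from 1 mouse, this p would be too small. A shared mouse for cheek 1 and meninges 1, across locations, could move it the other way. With the shared first part of the title as a block, the adjusted p was 0.00751. That fit used a correlation of 0.93 within blocks and also called 2802 genes in all. Leaving out 1 tumor at a time, without the block, gave an adjusted p of 0.105 to 0.669. The leukocyte markers moved with it: their summed RPKM was 126 to 162 in the cheek, 169 to 469 in the retro-orbital and 184 to 277 in the meninges tumors, 90.6 in the vestibular and 213 in the trigeminal tumor. Their part in the Rb1 values was not tested.

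For the other 8 genes, adjusted p over locations lay between 0.452 (Cdkn2c) and 0.795 (Ccnd3), and each location's range overlapped another's. Cdkn2c averaged 22.4 ± 6.32 RPKM (SD, n = 3) in the meninges, 13.7 ± 5.95 in the cheek and 13.3 ± 4.97 (n = 4) in the retro-orbital tumors. Cdk4 averaged 118 ± 4.11 RPKM in the cheek, 108 ± 7.27 in the meninges and 91.6 ± 27.5 in the retro-orbital tumors. Ccnd2 averaged 99.1 ± 40.8 RPKM in the meninges, 81.3 ± 95.4 in the cheek and 67.3 ± 59.8 in the retro-orbital tumors, and its SDs were larger than the differences between these means.

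The wider pathway was read from lists of 63 further genes, of which 62 were tested. None of the 62 passed by location at an adjusted p of 0.05, against 0.0407% of all genes tested. At an unadjusted p under 0.05, 14 of the 62 were called, against 14.3% of all genes tested. Of these 14, 7 were among 19 S-phase genes that E2F is known to activate. The widest range of location means among these S-phase genes was that of Prim1, a primase subunit, at 9.54 ± 3.39 RPKM in retro-orbital, 23.4 ± 4.20 in cheek and 22.7 ± 8.97 in meninges tumors. Mcm4, part of the replicative helicase, had means of 26.6, 57.5 and 47.5 RPKM in the same order. The median F of the 19 was 3.46, against 1.46 over all genes tested. The 19 genes come from the same tumors and were not tested as a set.

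In the remaining lists, the 2 genes with the widest range of location means were as follows. Among the other inhibitors, Cdkn1c averaged 4.27 ± 3.07 RPKM (SD) in retro-orbital, 15.7 ± 14.6 in cheek and 18.7 ± 16.5 in meninges tumors, the widest range of any gene in these lists (1.64 on the log2(RPKM + 1) scale), and Cdkn2d averaged 9.79, 10.2 and 15.0. Mnat1, of the CDK-activating kinase, averaged 12.1 RPKM in retro-orbital, 31.8 in cheek and 16.1 in meninges tumors, and Cdk7, its catalytic subunit, 6.74, 9.93 and 8.18. Among E2F factors, E2f8 averaged 3.04, 4.43 and 7.88 RPKM and E2f2 averaged 1.99, 3.38 and 5.09. Cyclin E genes were at means of 20.3, 26.2 and 33.0 RPKM for Ccne1 and 3.97, 8.51 and 7.88 for Ccne2. The pocket proteins related to RB1 had means of 6.94, 7.94 and 10.1 RPKM for Rbl1 and 16.0, 11.8 and 15.9 for Rbl2.

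Of genes for cyclin turnover, the F-box gene Fbxw7 averaged 13.3, 10.7 and 20.4 RPKM in retro-orbital, cheek and meninges tumors and Cryab 76.7, 90.4 and 198. Cbx7, a Polycomb gene known to act on the INK4a/ARF locus, averaged 7.63, 3.39 and 11.0 RPKM, and Rnf2, the Polycomb ubiquitin ligase, 38.5, 65.9 and 52.9. Near the INK4 genes, Mtap averaged 21.9, 41.4 and 17.4 RPKM and Dmrta1 stayed at or below 1.05 RPKM in all tumors and was not tested. The lowest adjusted p over all 62 genes was 0.204, for Prim1.

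Across the 12 tumors, 36 pairs of the 9 genes were correlated on log2(RPKM + 1). Their Pearson r ranged from -0.59 to 0.83 with a median of 0.01. The strongest relation was between Cdkn2a and Cdkn2b, with r = 0.83 (permutation p = 0.00087) and Spearman's rho = 0.78 (permutation p = 0.0045). It was 0.67 without the 2 tumors farthest from the median of Cdkn2a (meninges 1 and cheek 1) and 0.74 with 1 tumor for each first part of the title. In limma over 15042 genes with Cdkn2a as covariate, no gene passed, and the adjusted p of Cdkn2b was 0.9997.

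Of the 36 pairs, 2 had a Pearson permutation p under 0.05, with no adjustment for the number of pairs: Cdkn2a with Cdkn2b, and Cdk6 with Cdkn2a. Cdk6 and Cdkn2a had r = -0.59 (permutation p = 0.0409) and rho = -0.69 (permutation p = 0.017). Without meninges tumor 1 and retro-orbital tumor 1, their r was -0.32. Ccnd2 and Cdkn2a had r = 0.57 (permutation p = 0.0529) and rho = 0.45 (permutation p = 0.151). Ccnd3 and Cdkn2c had r = 0.48 (permutation p = 0.119) and rho = 0.76 (permutation p = 0.0058), and r was 0.57 without cheek tumor 1 and meninges tumor 1. Cdk4 and Cdk6 had r = -0.50 (permutation p = 0.0943) and rho = -0.71 (permutation p = 0.0121), and r was -0.24 without retro-orbital tumors 2 and 3. No pair passed after adjustment over all genes, the lowest adjusted p being 0.303 for Rb1 with Cdk4 as covariate. The plot of member pairs shows these relations.

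**Figure D3:**
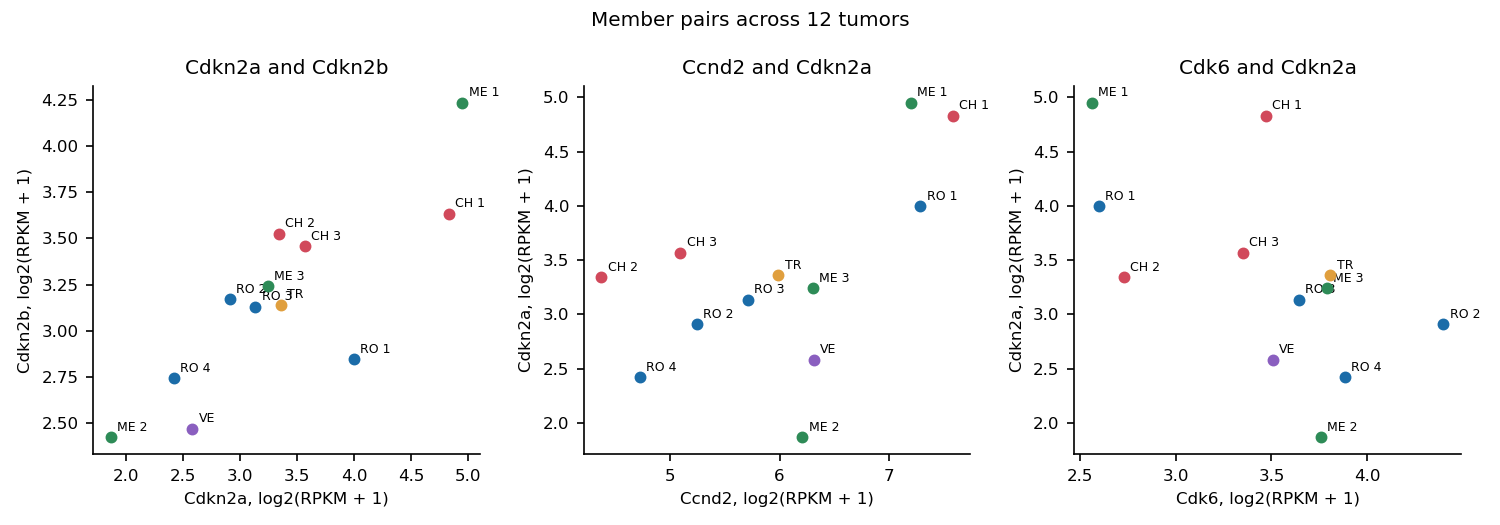
Pairs of members across 12 tumors, both axes log2(RPKM + 1), each point 1 tumor coloured by location. Cdkn2a and Cdkn2b rise together (r = 0.83), with meninges 1 and cheek 1 at the upper end. Cdk6 and Cdkn2a have r = -0.59, and -0.32 without meninges 1 and retro-orbital 1.

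Each of the 9 genes was then set against all genes across the 12 tumors, with its log2(RPKM + 1) as the covariate in limma (15042 genes with at least 1 RPKM in 3 or more tumors). With Cdk4, 1.2% of genes had a positive slope that passed an adjusted p of 0.05 (180 genes) and 0.392% a negative one (59 genes); the positive count was 0 without retro-orbital tumor 3, 2 without the vestibular tumor and 6 with 1 tumor for each first part of the title. For Cdkn2c 0.0332% passed with a negative slope (5 genes) and for Rb1 0.00665% with a positive one (1 gene). For Ccnd1, Ccnd2, Ccnd3, Cdk6, Cdkn2a and Cdkn2b the share was 0% in both directions, with between 452 (Cdkn2b) and 2042 (Ccnd3) genes at an unadjusted p under 0.05. None of the other 8 members passed with any member.

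The genes that passed with Cdk4 held 8 of the 19 S-phase genes, all with a positive slope: Mcm2, Mcm3, Mcm5, Mcm6 and Mcm7 of the replicative helicase, Uhrf1, which binds hemimethylated DNA, and Pola1 and Prim1 of DNA polymerase alpha and primase. All 19 had a positive r with Cdk4, from 0.42 (Rrm2) to 0.89 (Mcm5) with a median of 0.77, against a median of 0.10 over all 15042 genes. Of other lists, Ccne2 (cyclin E2), Cks1b, the cofactor of SKP2 in p27 degradation, and Tfdp1, the partner of E2F factors, passed with adjusted p of 0.0397, 0.0225 and 0.0492.

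Mcm5 was at 18.9, 12.5, 9.07 and 25.7 RPKM in retro-orbital tumors 1 to 4, at 24.3, 22.6 and 26.5 in the cheek, at 29.0, 26.8 and 21.1 in the meninges, at 55.6 in the vestibular and at 25.7 in the trigeminal tumor. Like Cdk4, it was lowest in retro-orbital tumors 2 and 3 and highest in the vestibular tumor. Its r with Cdk4 was 0.89 (permutation p = 0.00117), rho was 0.44 (permutation p = 0.154), and the adjusted p in limma was 0.0225.

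The relation rested on few tumors. Without retro-orbital tumors 2 and 3, the 2 farthest from the median of Cdk4, r over the 19 genes had a median of 0.58 and a range of -0.16 (Rrm2) to 0.81 (Cdt1). Of the 19, 0 passed when retro-orbital tumor 3 or the vestibular tumor was left out or when 1 tumor was kept for each first part of the title, 2 without cheek tumor 1, 5 without cheek tumor 3, 6 without meninges tumor 2, and 3 under upper-quartile scaling. The proliferation marker Mki67, one of the 19, had r = 0.65 (permutation p = 0.027), rho = 0.21 (permutation p = 0.512) and r = 0.04 without those 2 tumors.

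The leukocyte markers ran against Cdk4, with r = -0.72 (permutation p = 0.00936) and rho = -0.87 (permutation p = 5.0e-04). Over the 81 relations of the 9 genes with marker lists, total fragments and Mki67, the adjusted p was 0.185, and r was -0.82 without retro-orbital tumors 2 and 3. Retro-orbital tumor 2 had the highest leukocyte sum (469 RPKM) and the lowest Cdk4, and the vestibular tumor the lowest sum (90.6 RPKM) and the highest Cdk4. Retro-orbital tumor 3, next lowest for Cdk4, had a sum of 188 RPKM, near the median of 186. In retro-orbital tumor 2, the largest parts of the sum were Cd68 (244 RPKM) and Csf1r (146 RPKM). Ptprc was higher in retro-orbital tumor 4 (51.5 RPKM) than in retro-orbital tumor 2 (33.3 RPKM). The part of the leukocyte markers in the relation of Cdk4 to the S-phase genes was not tested.

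**Figure D4:**
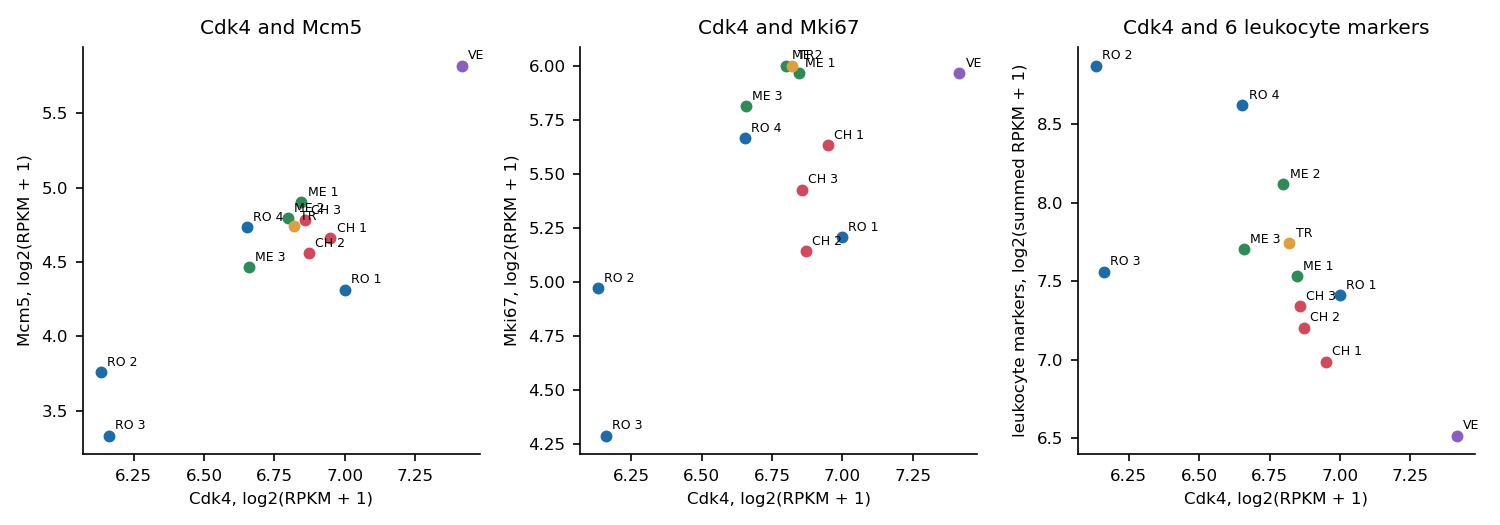
Mcm5, Mki67 (both log2(RPKM + 1)) and 6 leukocyte markers (log2 of summed RPKM + 1) on the vertical axes against Cdk4 (log2(RPKM + 1)) on the horizontal axis, each point 1 tumor. Retro-orbital tumors 2 and 3 and the vestibular tumor form the ends of each plot, and the other 9 tumors lie close together in Cdk4.

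**Figure D5:**
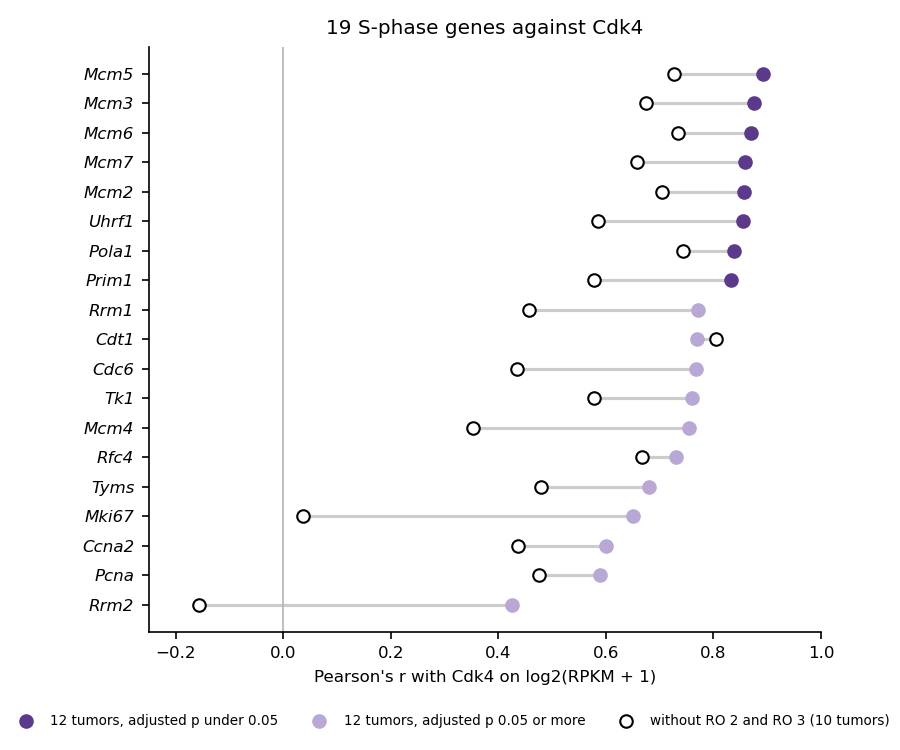
Pearson's r of 19 S-phase genes with Cdk4 over 12 tumors (filled points, dark where the adjusted p was under 0.05) and without retro-orbital tumors 2 and 3 (open points). For all of the 19 genes but Cdt1, r was lower without these tumors.

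Promoter windows of the RefSeq genes on GRCm38.p6, from 250 bases before the start to 50 after it, were available for 6 of the 9 genes (9 windows); Ccnd1, Ccnd2 and Rb1 had none. E2F sites were searched as TTTCGCGC and TTTGGCGC and their reverse complements GCGCGAAA and GCGCCAAA, counting overlapping sites once. None of the 9 windows held any of these sites. Of all 32851 windows 0.813% did, so a count of 0 among 9 is near the background. Of the 19 S-phase genes, 17 had a window and 7 of the 17 held a match, 6 of these among the 8 genes that passed with Cdk4. The list holds genes that E2F is known to activate, so such sites were likely in it from the start. Whether the sites go with the slope on Cdk4 was not tested. The matches of the 6 genes that passed with Cdk4 are shown as runs of 30 bases. The letters of every site are in capitals (overlapping sites run together):
Mcm3, chr1:20820263-20820292, minus strand: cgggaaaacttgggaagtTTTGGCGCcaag
Mcm5, chr8:75109345-75109374, plus strand: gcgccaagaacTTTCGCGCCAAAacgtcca
Mcm6, chr1:128359797-128359826, minus strand: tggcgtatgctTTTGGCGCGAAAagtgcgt
Mcm6, chr1:128359734-128359763, minus strand: gattggacgggTTTGGCGCgaagtagctca
Mcm7, chr5:138171849-138171878, minus strand: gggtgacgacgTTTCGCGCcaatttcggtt
Pola1, chrX:93632275-93632304, minus strand: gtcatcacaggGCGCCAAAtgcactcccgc
Uhrf1, chr17:56304117-56304146, plus strand: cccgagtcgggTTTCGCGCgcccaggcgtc

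The window of Cdk4 itself held a different repeat. CACGTG, the palindromic E-box that MYC and related factors are known to bind, occurred 4 times in the 250 bases before its start of transcription, and at least once in 7.15% of all windows. Only 8 of the 32851 windows held 4 or more. This motif was searched after the windows had been seen, and a match is a description of the letters, not of binding. The stretch on chr10:127063285-127063534, plus strand, is shown with the 4 E-boxes in capitals:
Cdk4: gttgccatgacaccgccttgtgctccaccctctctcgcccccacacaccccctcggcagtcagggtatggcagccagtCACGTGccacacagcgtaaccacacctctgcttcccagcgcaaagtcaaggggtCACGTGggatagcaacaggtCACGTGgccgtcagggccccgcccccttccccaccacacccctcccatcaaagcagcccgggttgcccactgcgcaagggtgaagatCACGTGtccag
With the first transcribed base as 0, the E-boxes begin at positions -172, -118, -98 and -11. Cdk6 and the second window of Cdkn2c held 1 E-box each.

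Rb1 went with 1 gene, Pmepa1, a TGF-beta target and inhibitor of that pathway, with r = 0.94 and an adjusted p of 0.0122 in limma over all genes; it did not pass without cheek tumor 2, meninges tumor 1, meninges tumor 2 or the vestibular tumor. The 5 genes that passed with Cdkn2c, all with a negative slope and an adjusted p of 0.0496, included Endod1, Mical2, Phlpp1 and Tnfrsf26. Phlpp1, a phosphatase of AKT, had r = -0.92. The count of 5 fell to 0 without cheek tumor 2 or 3, meninges tumor 1 or 3, the vestibular or the trigeminal tumor, to 1 without retro-orbital tumor 2 or 3 or cheek tumor 1 and to 2 without retro-orbital tumor 4, and it was 60 without meninges tumor 2. Vim also ran against Cdkn2c, with r = -0.82 (permutation p = 0.00108) and rho = -0.83 (permutation p = 0.00135); the adjusted p over the 81 relations was 0.0539, and r was -0.62 without retro-orbital tumor 1 and the vestibular tumor.

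By the highest r across the 12 tumors, the genes most like each member were Hgsnat, Slc9b2 and Mybl1 for Ccnd1 (r = 0.89 to 0.92), Top3b, Spred2 and Xaf1 for Ccnd2 (0.86 to 0.89), and Zbtb7b, Usp19 and Cyhr1 for Ccnd3 (0.92 to 0.94). For the kinases they were Hypk and Larp7 with Cdk4 (0.94 to 0.97) and Gas2l3, Ripk2 and Azin2 with Cdk6 (0.82 to 0.85). Among the inhibitors, Cdkn1a, Klhdc4 and Nyap1 were nearest to Cdkn2a (0.81 to 0.85), Fam189a2, Map2k5 and Phc2 to Cdkn2b (0.84 to 0.88), and Ppp6r2, Gatc and Trpt1 to Cdkn2c (0.91 to 0.94). For Rb1 they were Pmepa1, Rela and Parp4 (0.90 to 0.94). Of the genes named here, Hypk, Larp7 and Pmepa1 passed at an adjusted p of 0.05.

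Over the 9 genes, tumors with the same first part of the title were close to each other. Among the 66 pairs of tumors, ordered by the mean absolute difference in log2(RPKM + 1), cheek 2 and cheek 3 were the third (0.30), retro-orbital 3 and the trigeminal tumor the fourth (0.36) and cheek 1 and meninges 1 the sixth (0.43). The closest pair, meninges 3 and the trigeminal tumor (0.19), shared neither location nor title. The widest pair was retro-orbital 2 and meninges 1 (1.35). Cheek 1 and meninges 1, at different locations, shared the high Ccnd2, Ccnd3, Cdkn2a and Cdkn2b; their largest difference among the 9 genes was that of Cdk6 (0.91).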

How the data were processed

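RNA of 12 tumors was sequenced as a single pool after ribosomal depletion. Per the paper's methods and the submitters' processing notes, the authors made base calls with bcl2fastq 2.17, mapped to mm10 with STAR, assigned uniquely mapped fragments to RefSeq genes with HTSeq, and deposited RPKM values (fragments per kilobase, scaled to the tumor's total). The transcript lengths and the strand setting are not given in the sources used here. Because low RPKM values come in whole steps, the totals and fragment numbers were worked out from them: for 22608 of 22613 genes above 0, some length between 150 and 24999 bases made all 12 values whole (within 0.005 fragments); the smallest is used.

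Tests used limma 3.58.1 in R 4.3.3 with a trended, robust prior on log2(RPKM + 1), a filter of 1 RPKM in 3 tumors and Benjamini-Hochberg adjustment over all genes at 0.05. Location entered for the 10 tumors of locations with 3 or more tumors; in other fits a member's level was the covariate over all 12. Permutation tests were two-sided with 100000 resamples, or exact, in Python 3.11.15. The fits were tested on simulated data. Named genes were the 9 members, genes that passed in pathway lists and the 2 of widest range of location means in each list, and the 3 genes of highest r for each member; a few genes that met these rules, or stood in a list, are not reported here. The members and lists were chosen with earlier results of these data known. Nothing says that tumors came from separate mice, so p-values measure the spread between these tumors. A date stands where the symbol should be in 27 of the listed genes, and these were never named. For the 9 genes, 3 fragments were worth between 0.00910 (Ccnd2) and 0.205 RPKM (Cdkn2c), depending on gene and tumor. Pseudocount, filter, scaling, block and fitted tumors were varied.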

Additional observations from a re-analysis of the deposited data

How the results depend on the processing

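No paired analysis by replicate number was possible because the labels give no replicate numbers; the first part of the title, which 1 pair of tumors shares across the locations compared (cheek 1 and meninges 1), was entered as a block. Of the 9 genes, 0 passed by location in all alternatives other than the block on the first part of the title, where 1 (Rb1) passed over the 3 locations and 1 (Rb1) for cheek against meninges. Over all genes, the count by location was 10 without the filter, 2802 with the block, 1 with voom on recovered fragments and 49 without cheek tumor 1 and meninges tumor 1 (both chosen after seeing the data), and 0 to 198 when 1 tumor was left out, with 198 without cheek tumor 1 and 0 without cheek tumor 2, cheek tumor 3 or meninges tumor 1. For retro-orbital against cheek it was 2 without the filter, 2 with the block, 1 with voom, 77 without that pair and 0 to 147 with 1 tumor left out. For retro-orbital against meninges it was 7 without the filter, 3 with the block, 0 with voom, 0 without the pair and 0 to 41. For cheek against meninges it was 2 with a pseudocount of 0.1, 18 without the filter, 13 after quantile normalization, 4243 with the block, 0 with voom, 65 without the pair and 0 to 527.

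With members as covariates, upper-quartile scaling gave 2 positive genes for Ccnd1, 86 for Cdk4 and 3 S-phase genes with Cdk4, and 0 negative genes for Cdkn2c. One tumor for each first part of the title gave 6 positive and 0 negative genes for Cdk4, 0 S-phase genes, 0 for Cdkn2c and 0 for Rb1. A pseudocount of 0.1 gave 8 negative genes for Cdkn2c. Leaving out 1 tumor gave 0 to 1 positive genes for Ccnd1, 0 to 2 positive and 0 to 2 negative for Ccnd3, 0 to 222 positive and 0 to 53 negative for Cdk4, 0 to 10 S-phase genes, 0 to 26 positive and 0 to 60 negative for Cdkn2c, and 0 to 2 positive and 0 to 1 negative for Rb1. By the median, 6 of the 9 genes kept their place in the order of levels, and by fragments the mean share of Cdk4 was 84.2%. The cause of these changes was not tested. The Rb1 difference kept its direction in all alternatives, and r of Cdkn2a with Cdkn2b was 0.74 to 0.92 with upper-quartile scaling, a pseudocount of 0.1, 1 tumor for each first part of the title and the fits without 1 tumor; it was 0.67 without meninges tumor 1 and cheek tumor 1 together. With 3 or 4 tumors a location, differences could be missed even where locations did not overlap. For Rb1, the cheek tumors lay below all retro-orbital and meninges tumors, yet the adjusted p in limma was 0.181. The smallest difference that could be detected was not worked out.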

Other observations

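Ccnd1 ran against the 6 astrocyte and oligodendrocyte markers, with r = -0.72 (permutation p = 0.00133) and rho = -0.78 (permutation p = 0.00454) over 12 tumors; the adjusted p over 81 relations was 0.0539, and r was -0.64 without retro-orbital tumors 2 and 3. Cdkn2c ran with the 5 Schwann cell markers, with r = 0.72 (permutation p = 0.0064), rho = 0.67 (permutation p = 0.0204) and an adjusted p of 0.173, and r was 0.68 without retro-orbital tumor 1 and the vestibular tumor. Cdk6 ran with the 6 leukocyte markers, with r = 0.57 (permutation p = 0.0515) and rho = 0.74 (permutation p = 0.00788), an adjusted p of 0.381 for r over the same relations, and r = 0.72 without meninges tumor 1 and retro-orbital tumor 1.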
